A study of Mus musculus with 4 samples.

Results

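The genes described here encode the proteasome, the protease that degrades ubiquitin-tagged proteins. They were chosen by symbol: every gene with a single-symbol cluster whose annotated name begins with Psma to Psmg and a digit, without the interferon-induced core subunits Psmb8 and Psmb9. The rule found 47 of the 22180 genes on the array, and each was read by its brightest cluster with 1 gene symbol. Of these, 45 encode a core subunit, a regulatory subunit, an activator, an inhibitor or an assembly factor. The other 2, Psmc3ip and Psme3ip1, match the pattern by name but encode no subunit and are given apart. Of the 45, 41 passed a filter on low levels and 4 did not. Transcripts were measured in gastrocnemius, a calf muscle, on Affymetrix arrays. The 4 groups had 1 array each: wild-type mice (WT) and mice whose transcription factor KLF15 was knocked out in skeletal muscle only (KO), each after vehicle or after streptozotocin (STZ), a toxin of the insulin-producing pancreatic cells. STZ went into the peritoneum at 50 mg/kg, daily for 5 days, in 50 mM sodium citrate of pH 4.5. Control mice received the citrate, and every muscle was taken at 3 weeks. The sources used here do not state the Cre driver, the age of the mice, or whether an array stands for 1 animal or a pool.

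The 26S proteasome is built from a barrel, the 20S core, and caps, the 19S regulatory particles. The core stacks outer rings of alpha subunits, which gate the entrance, around inner rings of beta subunits, some of which carry the protease sites. The base of the cap holds a ring of ATPases that unfold the substrate and pull it in, and the lid removes the ubiquitin chain. Assembly factors chaperone both parts and are mostly absent from the finished particle. In muscle, the proteasome breaks down myofibrillar proteins, and its subunit genes are known to rise in several kinds of atrophy, insulin deficiency included.

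The promoters of members on which the results below turn are shown first. Sequences were taken from RefSeq (GRCm38.p6), and 37 of the 45 genes had an entry, with 40 windows of 300 bases in all. Each line gives the 250 bases upstream of the start site, 5′ to 3′ on the gene's own strand. Capitals in the first 3 mark CCAAT or its reverse complement ATTGG, and capitals in the last 2 mark TGACNNNGC, the core of the antioxidant response element through which NFE2L1 is known to raise proteasome genes. Psmc1, Psma7 and Psma1 were among the members brightest on the WT STZ array. Psmb5 and Psmb6 were among the flattest members over the 4 arrays. All 5 were chosen for these patterns after their values were seen.
Psmc1 (chr12:100109952-100110201, plus strand): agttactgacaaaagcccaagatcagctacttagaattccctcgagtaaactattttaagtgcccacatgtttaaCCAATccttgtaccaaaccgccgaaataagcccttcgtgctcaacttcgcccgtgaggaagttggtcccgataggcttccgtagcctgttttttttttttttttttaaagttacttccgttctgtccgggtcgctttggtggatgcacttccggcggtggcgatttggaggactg
Psma7 (chr2:180042465-180042714, minus strand): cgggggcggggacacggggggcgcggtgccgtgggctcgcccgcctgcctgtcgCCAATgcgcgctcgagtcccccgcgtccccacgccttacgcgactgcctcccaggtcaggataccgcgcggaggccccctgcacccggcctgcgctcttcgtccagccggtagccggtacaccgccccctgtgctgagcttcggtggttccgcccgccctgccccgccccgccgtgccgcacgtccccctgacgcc
Psma1 (chr7:114276117-114276366, minus strand): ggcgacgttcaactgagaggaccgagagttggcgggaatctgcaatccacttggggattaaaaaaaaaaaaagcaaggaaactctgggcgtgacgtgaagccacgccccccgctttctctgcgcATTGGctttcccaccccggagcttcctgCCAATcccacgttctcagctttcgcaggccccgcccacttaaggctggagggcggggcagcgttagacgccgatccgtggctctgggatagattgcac
Psmb5 (chr14:54617996-54618245, minus strand): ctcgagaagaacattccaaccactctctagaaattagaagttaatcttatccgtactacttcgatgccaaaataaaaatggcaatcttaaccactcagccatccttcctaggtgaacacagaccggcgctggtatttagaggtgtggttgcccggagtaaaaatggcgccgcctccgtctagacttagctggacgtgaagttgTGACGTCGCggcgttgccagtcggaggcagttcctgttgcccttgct
Psmb6 (chr11:70525107-70525356, plus strand): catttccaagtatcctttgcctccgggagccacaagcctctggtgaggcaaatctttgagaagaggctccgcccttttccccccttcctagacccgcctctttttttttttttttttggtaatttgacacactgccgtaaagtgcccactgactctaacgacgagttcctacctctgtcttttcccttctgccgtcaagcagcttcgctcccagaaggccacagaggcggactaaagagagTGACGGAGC

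Motifs were searched on both strands of the whole windows, each motif on its own, so matches of different motifs may overlap. CCAAT was found in 13 of the 40 windows (32.5%), against 37.4% of all 32851 windows in the table. TGACNNNGC was found in 6 of 40 (15.0%), against 12.4%. CACCC, a box bound by Kruppel-like factors, was found in 17 of 40 (42.5%), against 57.5%. TGTTTAC, a forkhead motif, was found in 0 of 40, against 3.65%. The proteasome windows thus held none of the 4 motifs at a share far above that of all windows, and a match of letters is no evidence of binding.

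With 1 array per group there was no replicate, so no test, p-value or error can be given, and every difference below describes single arrays. Values are linear intensities as deposited, and each pair of values in WT or in KO gives vehicle first and STZ second. Differences are on the log2 scale after adding 3.69 (percentile 25 of the table) to each intensity. Intensities of different genes are not compared, because each cluster has its own probes. Klf15 itself read 50.5 and 72.1 in WT and 19.8 and 16.04 in KO. It was low on both KO arrays, and whether its cluster lies in the deleted part was not tested. Median intensity of all 41345 clusters ran from 5.73 to 5.96 over the arrays, and percentile 95 between 179.4 (KO STZ) and 206.8 (WT STZ). Bright genes as a whole therefore read low on the KO STZ array and high on the WT STZ array. Most proteasome genes are bright, so each count is set beside all 13258 genes that passed the filter and beside 2817 genes of like level, which are the other genes with intensities between 61.8 and 313.7, the middle range of the members. Skeletal muscle markers were strong on every array (Acta1 at least 7545, Myh4 at least 7237), and the lymphocyte marker Cd3e stayed at 6.45 or less.

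Members were counted past 1.2-fold (0.26 on the log2 scale), and no member of the 41 reached 1.5-fold (0.58) in any of the 5 comparisons. Among all genes the share past 1.5-fold either way was 1.36% for KO against WT under vehicle, 3.65% for KO against WT under STZ, 1.72% for STZ in WT, 1.1% for STZ in KO and 5.67% for the difference between the STZ effects. By SD, the members scattered less than genes of like level in the 4 pairwise comparisons, but by interquartile range not in KO against WT under STZ (0.31 against 0.30). Their SD of log2 differences was 0.14 against 0.21 for KO under vehicle, 0.19 against 0.25 for KO under STZ, 0.19 against 0.23 for STZ in WT and 0.14 against 0.19 for STZ in KO.

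**Figure D1:**
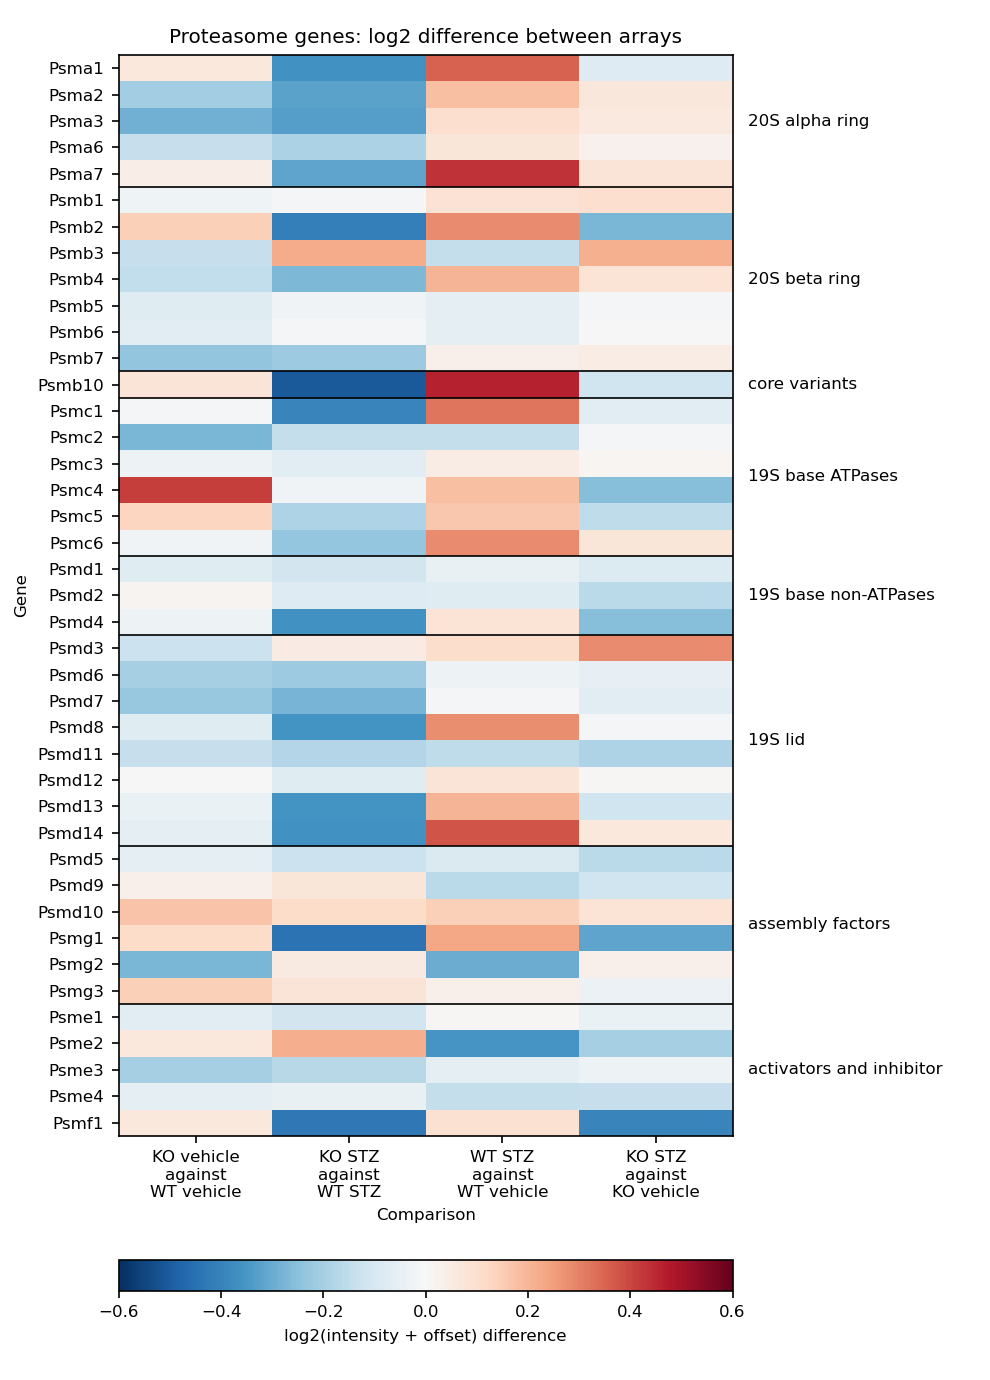
Log2 differences of the 41 proteasome genes that passed the level filter (rows, ordered by role) in the 4 pairwise comparisons (columns), with 1 array per group; red is higher and blue lower in the first-named array. The KO STZ against WT STZ column is mostly blue (34 of 41 below 0), and Psmb10 has its strongest blue (-0.50) there and its strongest red (0.46) in WT STZ against WT vehicle.

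Without STZ, KO was compared with WT to see what the lack of KLF15 does by itself. Proteasome genes sat slightly lower in KO vehicle than in WT vehicle, with a median of -0.05, against -0.0039 over all genes and -0.02 over genes of like level. Of 41, 28 were below 0, against 50.8% of all genes and 54.5% of genes of like level. That count was 19 under quantile normalization and 21 with the loess trend on level removed. Psmc4, an ATPase of the base, was the 1 gene at least 1.2-fold higher (0.41), where 9.07% of all genes and 6.82% of genes of like level were. The 3 genes at least 1.2-fold lower were Psma3 (-0.29), Psmc2 (-0.28) and Psmg2 (-0.27), where 9.33% of all genes and 9.8% of genes of like level were. Psmg2 alone of these 3 stayed past 1.2-fold under quantile normalization and loess. Psma3 alone did with the mean of all clusters, since the second cluster of Psmc2 stood at -0.05. The shares of members called, 1 and 3 of 41, were no larger than these backgrounds.

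The same genotypes were next compared after STZ. At least 1.2-fold lower in KO were 15 of 41, and 0 were higher. Over all genes 18.9% were lower and 9.44% higher, and among genes of like level 28.7% and 3.66%. The median was -0.17, against -0.048 over all genes and -0.15 over genes of like level. In all, 34 of 41 were below 0, against 58.1% and 74.3%. Genes of the same brightness thus had nearly the same median. Under quantile normalization the median was 0.020, with 2 genes at least 1.2-fold higher and 5 lower. With the loess trend on level removed it was -0.034, again with 2 and 5. Below 0 were 20 members under quantile normalization and 23 under loess. The 5 genes past 1.2-fold on the lower side under both were Psmb10, Psmg1, Psmf1, Psmb2 and Psmd14.

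The effect of STZ itself was taken first in WT. Of 41 genes, 8 were at least 1.2-fold higher in WT STZ: Psmb10, Psma7, Psmd14, Psma1, Psmc1, Psmc6, Psmb2 and Psmd8. The background was 12.6% of all genes and 16.3% of genes of like level. The 2 genes at least 1.2-fold lower were Psme2 (-0.35) and Psmg2 (-0.30), against 8.73% and 6.5%. The median was 0.077, against 0.0075 and 0.041, and 26 of 41 were above 0, against 51.5% and 58.9%. Under quantile normalization, loess and centring, 5 of the 8 stayed past 1.2-fold in each case (Psmb10, Psma7, Psmd14, Psma1 and Psmc1), while both lower genes stayed. Psmb10 is an immunoproteasome form, and the other higher genes belong to the alpha ring, the beta ring, the ATPase ring and the lid.

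In KO, the members differed little between STZ and vehicle. Their median was -0.034, against -0.032 over all genes and -0.074 over genes of like level. Psmd3, a structural lid subunit, was the 1 gene at least 1.2-fold higher (0.28), against 7.14% and 3.69%. The 3 lower genes were Psmf1 (-0.40), Psmg1 (-0.32) and Psmb2 (-0.27), against 12.7% and 14.9%. None of the 8 genes higher in WT STZ passed 1.2-fold upward in KO STZ, and Psmb2 passed it downward. Passing 1.2-fold upward in both genotypes was rare everywhere, at 1.29% of all genes and 1.56% of genes of like level.

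The STZ difference in KO minus that in WT had a median of -0.062 over the members, against -0.048 over all genes and -0.12 over genes of like level. It was 1.2-fold or more below 0 in 13 of 41, against 22.0% and 27.3%, and above 0 in 2, against 13.0% and 4.61%. The median turned to 0.072 under quantile normalization and to 0.050 with the loess trend removed, where 7 genes were still past 1.2-fold below 0. The farthest were Psmb10 (-0.58), Psmb2 (-0.55) and Psmg1 (-0.55) on the lower side, and Psmb3 (0.36) and Psmg2 (0.33) on the higher side, with Psmd3 next at 0.18. The STZ comparisons of the genotypes share no array. Signs were opposite in 16 of 41 members, against 48.5% of all genes and 45.1% of genes of like level. In 13 of these the gene was higher with STZ in WT and lower in KO (31.7% of members, against 28.6% and 35.5%). Opposite signs at least 1.2-fold apart were found in 13 of 41 (31.7%), against 27.6% and 24.1%. Opposite signs as such were thus no more common among the members than among other genes.

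**Figure D2:**
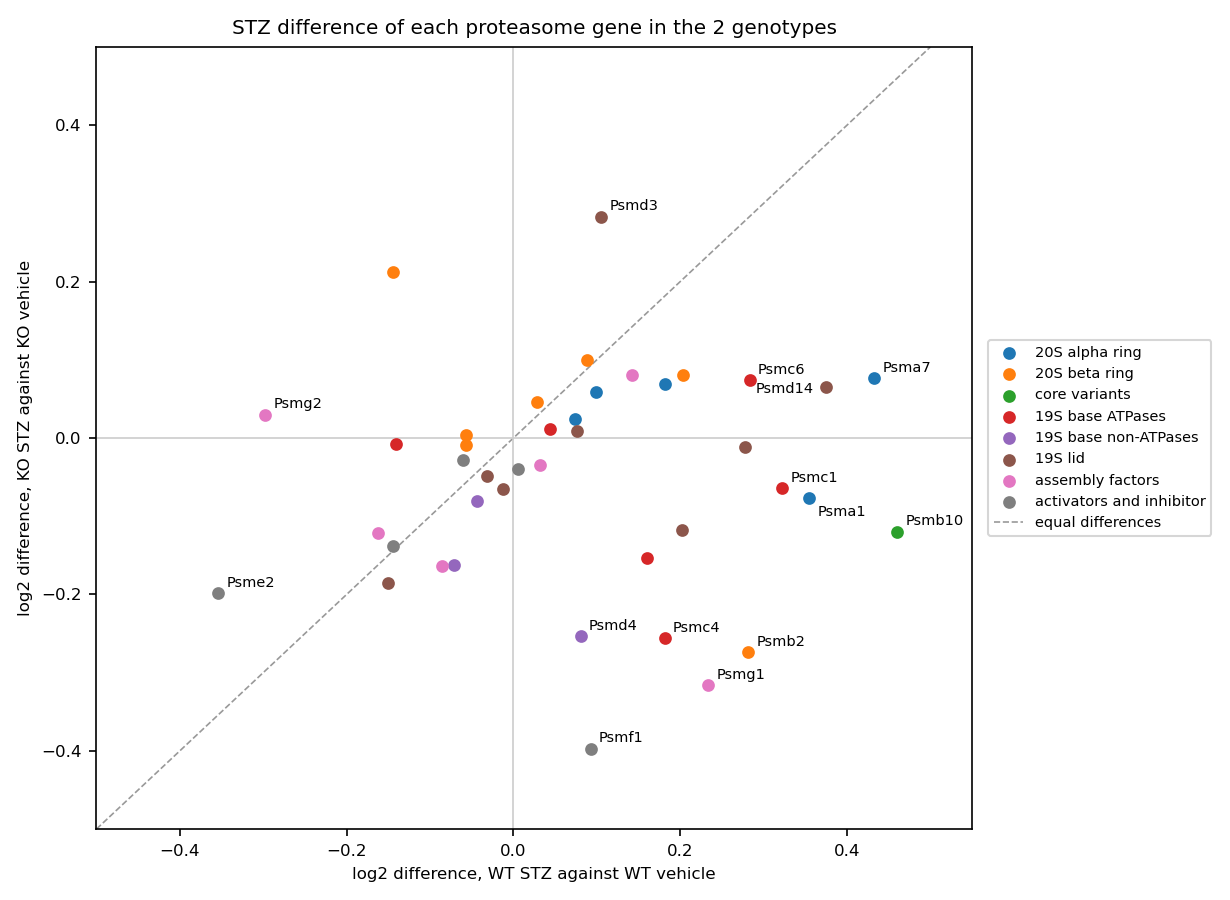
Each point is 1 of 41 proteasome genes, with its log2 STZ difference in WT on the horizontal axis and in KO on the vertical axis, coloured by role; the dashed line marks equal differences. Psma7 (0.43 in WT) and Psmb10 (0.46) lie below the line, with KO values of 0.08 and -0.12, and Psmd3 (0.11 and 0.28) lies above it.

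The genotype comparisons with and without STZ share no array either. Of 41 members, 25 were below 0 in both, against 32.7% of all genes and 45.6% of genes of like level. Above 0 in both were 4, against 23.7% and 16.8%. Quantile normalization left 19 members below 0 under vehicle and 20 under STZ, and loess left 21 and 23. The count of 25 thus holds only for the values as deposited. Psma3 was the 1 member at least 1.2-fold lower in KO under both treatments (2.44% of members, against 3.23% and 5.75%). By array, 22 of 41 members read highest in WT STZ and 21 read lowest in KO STZ, where genes of like level did so in 44.6% and 45.4%.

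The alpha ring of the core was read by 5 genes that passed the filter. In KO against WT under STZ it had a median of -0.32, with 4 of 5 past 1.2-fold on the lower side. All 5 stayed below 0 under quantile normalization and loess, but none stayed past 1.2-fold, and the median shrank to -0.13 and -0.16. All 5 were above 0 in WT STZ against WT vehicle, also under both of these settings, with a median of 0.18. Psma3 read 1093 and 1171 in WT and 894 and 931 in KO. Both KO arrays were thus below both WT arrays, by -0.29 under vehicle and -0.33 under STZ. Psma7 read 255.4 and 346 in WT and 262.4 and 276.8 in KO. Its WT STZ array stood above the other 3, which lay close together, and its STZ difference was 0.43 in WT and 0.08 in KO. Psma1 read 103.4 and 133.3 in WT and 108.4 and 102.7 in KO, the same pattern, with 0.35 in WT and -0.08 in KO. Psma2, whose KO arrays (214.5 and 225.1) also lay below its WT arrays (248.2 and 282.1), stood at -0.21 and -0.32 in KO against WT under vehicle and STZ. Psma6 was the flattest of the ring, with intensities from 164.8 to 191.5. Psma4, the remaining alpha subunit beside Psma5, was read only by clusters that carry another gene's symbol as well, and no value is given.

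The beta ring was read by 7 genes, among them the 3 that carry the constitutive protease sites. The caspase-like subunit Psmb6 read 257.9 and 247.8 in WT and 246.1 and 246.8 in KO. The chymotrypsin-like subunit Psmb5 read 185.1 and 177.8 in WT and 176.0 and 175.0 in KO. Both were flat over the 4 arrays, with no pairwise difference farther from 0 than -0.07. The trypsin-like subunit Psmb7 read 740.8 and 755.5 in WT and 627.6 and 648.2 in KO, with both KO arrays below both WT arrays (-0.24 under vehicle and -0.22 under STZ). STZ differed by 0.03 in WT and 0.05 in KO for this gene. Psmb2, a beta subunit without a protease site, read 72.7 and 89.2 in WT and 80.7 and 66.2 in KO. Its STZ difference was 0.28 in WT and -0.27 in KO, so the genotypes went opposite ways. Psmb3 read 26.8 and 23.9 in WT and 24.1 and 28.5 in KO, and stood at 0.22 in KO against WT under STZ. Psmb1 read 439.9 and 467.8 in WT and 432.2 and 463.3 in KO, and Psmb4 stood at -0.27 in KO against WT under STZ. The class median in that comparison was -0.023, and its members ranged from -0.41 to 0.22. The median turned to 0.15 under quantile normalization, 0.13 under loess and 0.025 with centring.

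Psmb10 encodes the interferon-induced subunit that takes the place of Psmb7 in the immunoproteasome. It read 48.6 and 68.2 in WT and 51.5 and 47.1 in KO. The WT STZ array stood apart and the other 3 were close, so the gene had the largest STZ difference in WT (0.46) and the lowest KO value under STZ (-0.50) of all members. Its partners Psmb8 and Psmb9 were left out by the rule. Psmb8 read 23.7 and 32.3 in WT and 27.0 and 43.0 in KO, so that it was higher with STZ in WT (0.39), like Psmb10, but also in KO (0.61), and Psmb9 read 11.2 and 9.81 in WT and 10.8 and 13.3 in KO. The peptide transporter gene Tap1, on the same list, read 24.6 and 21.9 in WT and 11.2 and 20.3 in KO. Tap2 stayed between 12.1 and 14.3, and B2m, the light chain of MHC class I, was higher with STZ in both genotypes (0.41 and 0.38). Summed macrophage markers (7 of 7 matched, 6 past the filter) were 247.03 and 303.8 in WT and 265.6 and 315.2 in KO. The sum was high on both STZ arrays mainly through Lyz2 (0.54 with STZ in WT and 0.38 in KO). C1qa was also higher with STZ in both genotypes (0.16 and 0.40). Cd68 was higher in WT only (0.47 and -0.03) and Mrc1 in KO only (-0.21 and 0.22). Adgre1 (-0.01 and -0.15) and Csf1r (0.02 and -0.05) were not higher by more than 0.02. The part of these cells in the Psmb10 values was not tested.

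The ring of base ATPases was read by 6 genes, with a median of 0.17 in WT STZ against WT vehicle and -0.16 in KO against WT under STZ. The latter was 0.014 under quantile normalization. Psmc1 read 248.0 and 310.9 in WT and 246.0 and 235.2 in KO, with STZ differences of 0.32 in WT and -0.06 in KO. Psmc6 read 330.3 and 402.8 in WT and 325.2 and 342.5 in KO, with 0.28 in WT and 0.07 in KO. In both genes the WT STZ array alone stood high. Psmc4 instead was highest in KO vehicle, with 218.6 and 248.4 in WT and 292.5 and 244.4 in KO, so that it stood at 0.41 in KO against WT under vehicle and -0.02 under STZ. Psmc2 read 371.04 and 336.2 in WT and 305.8 and 304.3 in KO on its brightest cluster, with both KO arrays below both WT arrays. Its second cluster went the other way with STZ in WT, 0.18 against -0.14, so no direction is drawn for that comparison. Psmc3 was flat at 181.0 to 190.9, and Psmc5 lay between 157.6 and 179.7.

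Of the base subunits that are no ATPases, the scaffolds Psmd1 and Psmd2 were near flat. Psmd1 read 295.4 to 328.8 and Psmd2 372.2 to 416.96, both lowest in KO STZ. The ubiquitin receptor Psmd4 read 206.2 and 218.3 in WT and 202.0 and 169 in KO. Its KO STZ array was the lowest, with -0.36 against WT STZ and -0.25 against KO vehicle. A cluster annotated to both Psmd1 and Armc9 was not used.

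The lid was read by 8 genes. All 8 were below 0 in KO vehicle against WT vehicle, with a median of -0.10 and none past 1.2-fold, and 6 of 8 were below 0 under quantile normalization and 7 of 8 with the loess trend removed. Psmd7 (-0.23) and Psmd6 (-0.20) were the lowest. Under STZ, 7 of 8 were lower in KO, 4 of them past 1.2-fold, with a median of -0.25. That median was -0.058 under quantile normalization. Psmd14, the deubiquitinase that cuts the chain off the substrate, read 20.6 and 27.9 in WT and 19.8 and 20.9 in KO. Its WT STZ array alone stood high, at 0.38 above WT vehicle, while STZ differed by 0.065 in KO. Psmd8 read 699.05 and 848.04 in WT and 664.7 and 659.5 in KO, with 0.28 in WT and -0.01 in KO. Psmd13 stood at 0.20 with STZ in WT and -0.12 in KO. Psmd11, a subunit whose amount is known to limit assembly of the full particle in other cells, read 414.8 and 373.4 in WT and 376.5 and 330.7 in KO. It was lower with STZ in both genotypes (-0.15 and -0.19). Psmd7, the partner of Psmd14 in the cutting pair, read 492.8 and 488.6 in WT and 420.8 and 401.9 in KO, with both KO arrays below both WT arrays. Psmd3 read 118.5 and 127.7 in WT and 108.1 and 132.3 in KO, highest in KO STZ, and Psmd12 was flat (287.2 to 303.9).

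**Figure D3:**
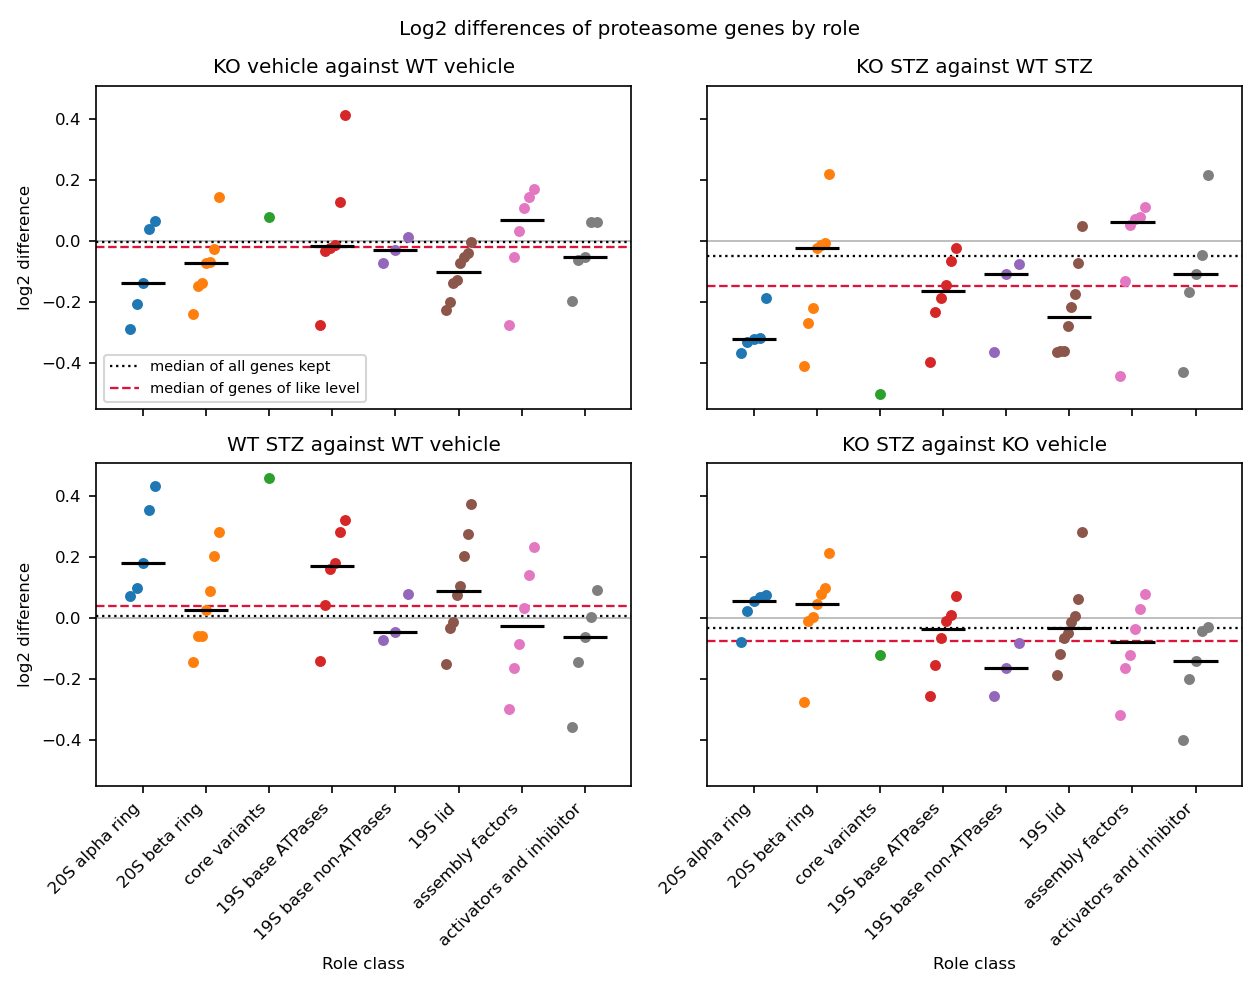
Log2 differences of the 41 proteasome genes by role class, 1 panel per pairwise comparison; black bars are class medians (for classes of more than 1 gene), the dotted line is the median of all genes that passed the filter and the dashed line that of genes of like level. In KO against WT under STZ the alpha ring (median -0.32), the lid (-0.25) and the base ATPases (-0.16) lie below the dashed line at -0.15. The other base subunits (-0.11), activators and inhibitor (-0.11), beta ring (-0.023) and assembly factors (0.063) lie above it.

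Assembly factors were read by 6 genes, with no common direction. Their median was 0.063 in KO against WT under STZ, and from 0.045 to 0.12 over the alternatives. Psmg1, which with Psmg2 forms the chaperone pair that starts the alpha ring, read 28.2 and 33.8 in WT and 30.7 and 23.9 in KO. Its KO STZ array was the lowest, with -0.44 against WT STZ and -0.32 against KO vehicle. Its partner Psmg2 went the other way, with 62.4 and 50.1 in WT and 50.9 and 52.1 in KO. There WT vehicle alone stood high, and the second cluster of the gene read 4.13 or less. Psmg3 read 13.8 and 14.2 in WT and 15.7 and 15.2 in KO, with differences of at most 0.15. Of the chaperones of the base, Psmd10 read 27.5 and 30.7 in WT and 31.4 and 33.4 in KO, so that every pairwise difference was above 0, up to 0.17. Psmd5 read 84.5 and 79.4 in WT and 81.4 and 72.3 in KO, and Psmd9 read 40.6 and 35.9 in WT and 41.6 and 37.9 in KO. Both were lower with STZ in WT and KO, with -0.09 and -0.16 for Psmd5 and -0.16 and -0.12 for Psmd9.

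The activators cap the core in place of the 19S particle. Psme1 read 200.7 and 201.5 in WT and 192.0 and 186.6 in KO. Its partner Psme2, also induced by interferon, read 42.1 and 32.1 in WT and 44.1 and 38.0 in KO, lower with STZ in both genotypes (-0.35 and -0.20). A further cluster annotated to Psme2 also carries the symbols of other genes and was not used. Psme3, the nuclear activator, read 67.6 and 64.6 in WT and 58.4 and 57.2 in KO, with both KO arrays below both WT arrays (-0.20 and -0.16). Psme4, which encodes the large single-chain activator PA200, read 598.9 and 541.5 in WT and 577.2 and 524.1 in KO, with STZ differences of -0.14 in both genotypes. Psmf1, an inhibitor of the core, read 39.2 and 42.1 in WT and 41.1 and 30.4 in KO. Its KO STZ array stood alone, with -0.43 against WT STZ and -0.40 against KO vehicle.

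**Figure D4:**
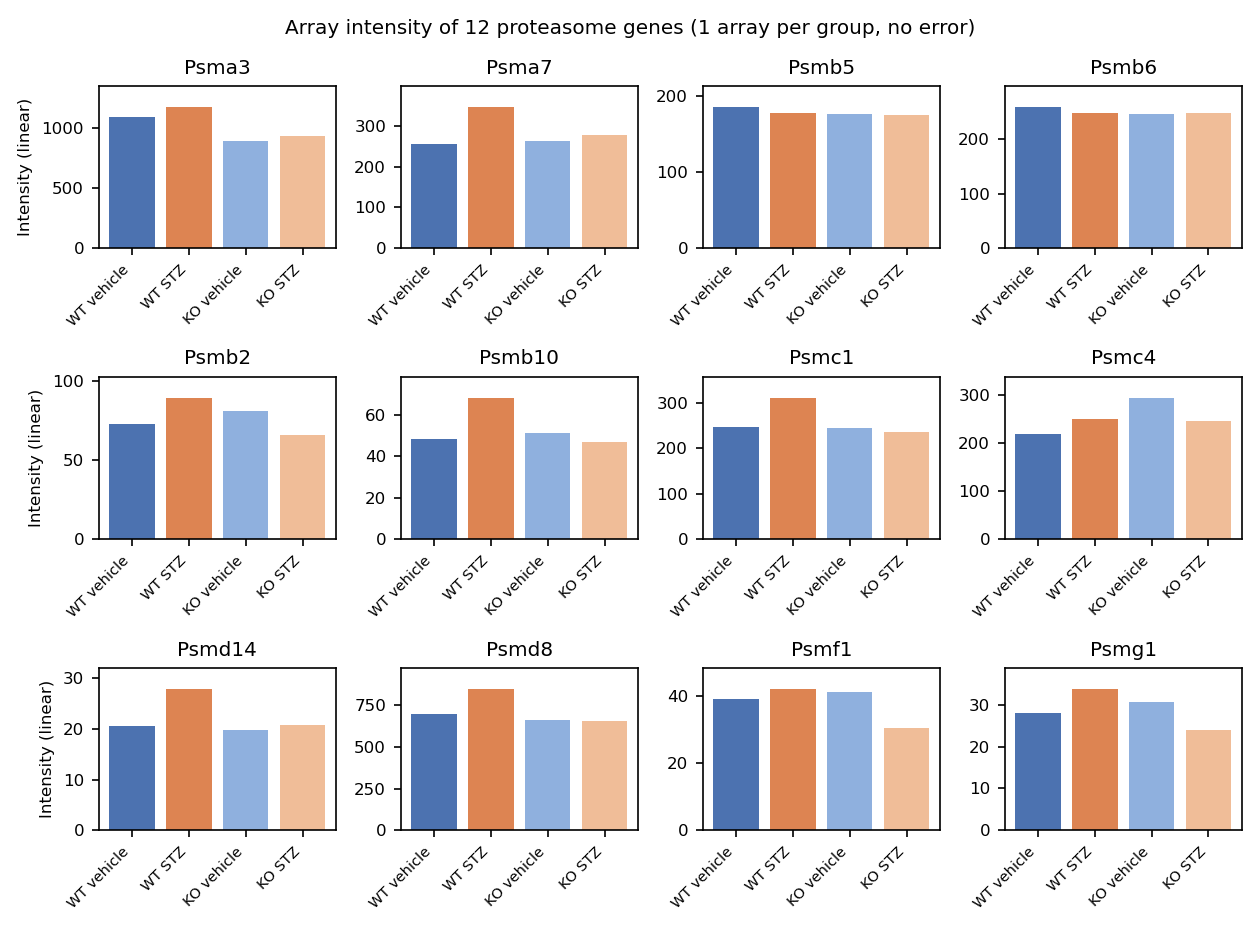
Linear intensity of 12 proteasome genes on the 4 arrays (bars start at 0; 1 array per group, so no error bars). The WT STZ bar stands highest for Psma7 (346), Psmb10 (68.2), Psmc1 (310.9), Psmd14 (27.9) and Psmd8 (848.04), the KO STZ bar lowest for Psmf1 (30.4) and Psmg1 (23.9), and the 4 bars of Psmb5 and Psmb6 are near level.

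Members that did not pass the filter were Psma5, Psma8, Psmb11 and Psmg4. Psma5 is an obligatory alpha subunit, yet both of its single-symbol clusters read between 4.48 and 5.33, under the filter's 5.81. Psma8, the testis form of an alpha subunit, read 4.55 and 5.69 in WT and 7.03 and 4.77 in KO. Psmb11, the thymus form of a beta subunit, read 4.54 or less, and Psmg4, the partner of Psmg3, 4.72 or less. Among the genes that match by name only, Psmc3ip, a recombination factor, read 7.13 and 6.43 in WT and 6.36 and 9.31 in KO, and Psme3ip1 was flat at 103.7 to 109.7.

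Promoter motifs were then set beside the differences, with no test. In KO against WT under STZ, 7 of the 12 members with CCAAT in the window were at least 1.2-fold lower (median -0.32), and 6 of the 22 members without it (median -0.12). Over all genes with an entry, 860 of 4296 with CCAAT and 1083 of 6074 without it were. All 5 alpha ring genes of this count hold CCAAT, so motif and class overlap in part, and they were not told apart. Of the 6 members with TGACNNNGC (Psmb5, Psmb6, Psmc6, Psmd12, Psmd9 and Psme4), 0 were lower by 1.2-fold and their differences ran from -0.23 to 0.073. Of the 28 without it, 13 were lower. Over all genes, 328 of 1726 with the motif and 1615 of 8644 without it were. For CACCC, the Kruppel-like factor box, 4 of 13 members with it (median -0.17) and 9 of 21 without it (-0.22) were lower, against 1236 of 7010 and 707 of 3360 over all genes. TGTTTAC was in no member's window. These counts rest on the values as deposited, and none was taken over genes of like level. Only 5 members stayed past 1.2-fold lower under quantile normalization and loess. Psmb2, 1 of these 5, had no promoter entry and was not searched. Among the rest, Psmd14 alone was found to hold CCAAT, and none was found to hold TGACNNNGC.

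Other genes of the pathway were taken from lists of proteasome-associated proteins, shuttle factors, regulators, and ubiquitin and conjugating enzymes. Of 45 symbols listed, 33 were matched and all passed the filter. In KO against WT under STZ, 9 of 33 were at least 1.2-fold lower and 2 higher, with a median of -0.17. The 9 are 27.3% of the list, against 18.9% of all genes and 28.7% of genes of like level. The 2 higher are 6.06%, against 9.44% and 3.66%. Under vehicle, 6 (18.2%) were lower, against 9.33% and 9.8%, and 2 (6.06%) higher, against 9.07% and 6.82%. With STZ in WT, 1 (3.03%) was higher, against 12.6% and 16.3%, and 2 (6.06%) lower, against 8.73% and 6.5%. With STZ in KO, 1 (3.03%) was higher, against 7.14% and 3.69%, and 5 (15.2%) lower, against 12.7% and 14.9%. The like level here is that of the proteasome members, not of this list. The 2 genes at least 1.2-fold higher in KO under both treatments were the forkhead factors Foxo1 (0.42 and 0.56) and Foxo3 (0.38 and 0.29). Higher by that much under both treatments were 1.66% of all genes and 1.24% of genes of like level. The forkhead factor Foxo4, on the same list, went the other way (-0.07 under vehicle and -0.42 under STZ). Foxo1 was lower with STZ in both genotypes (-0.46 and -0.32). Nfe2l1, the factor that induces proteasome genes when the protease is blocked, read 338.5 and 344.1 in WT and 354.5 and 331.2 in KO. It was flat, whereas its relative Nfe2l2 read 133.7 and 143.4 in WT and 149.1 and 108.5 in KO, lowest in KO STZ (-0.39 against WT STZ). Among the ubiquitin-conjugating enzymes, Ube2d1 (-0.40 under vehicle and -0.13 under STZ), Ube2d3 (-0.34 and -0.32) and Ube2n (-0.32 and -0.23) were below 0 in KO under both treatments. So was Ube2d2a (-0.27 and -0.28), past 1.2-fold under both. Sem1, the smallest lid subunit, was flat at 531.1 to 559.9, and the core maturation factor Pomp read 185.9 and 184.9 in WT and 173.3 and 160.1 in KO. The ubiquitin receptor Adrm1 was on the list but not matched. The proteasome-bound deubiquitinase Usp14 read 88.1 and 83.6 in WT and 72.8 and 79.1 in KO, at -0.26 in KO against WT under vehicle and -0.08 under STZ. The scaffold Ecpas was lower with STZ in both genotypes (-0.22 and -0.23).

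Ribosomal protein genes and small nucleolar RNAs, which encode no proteasome part, moved on the same arrays. In WT STZ against WT vehicle, 69 ribosomal protein genes had a median of 0.24 and 60 small nucleolar RNAs a median of 0.38. In KO against WT under STZ they stood at -0.24 and -0.30. With STZ in KO they stood at 0.055 and 0.0064. In the same order of comparisons, all 41 members had medians of 0.077, -0.17 and -0.034, and genes of like level 0.041, -0.15 and -0.074. In KO against WT under vehicle, ribosomal protein genes stood at -0.08, small nucleolar RNAs at 0.10 and the members at -0.05. The part of RNA quality in any of these was not tested. Slow muscle markers (5 of 5 matched and past the filter) had summed intensities of 559.3 and 601.7 in WT and 442.6 and 365.5 in KO. Fibroblast markers (5 of 5) summed to 2584 and 2801 in WT and 3008 and 3039 in KO. Adipocyte markers (4 of 5 matched, 3 past the filter) summed to 119.3 and 128.7 in WT and 152.4 and 91.2 in KO. Endothelial markers (5 of 5) summed to 579.6 and 578.2 in WT and 688.7 and 642.4 in KO. Slow muscle sums were thus lower in KO. The fibroblast sums were higher in KO through Col1a1 (0.76 and 0.92) and Col3a1 (0.64 and 0.76), while under STZ the other 3 markers, Dcn, Pdgfra and Lum, were below 0. Adipocyte markers were lowest in KO STZ, and the part of all these in the members' values was not tested. In whole muscle, fewer cells of a type and less RNA per cell cannot be told apart.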

How the data were processed

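The authors deposited 1 linear intensity per transcript cluster and array, for 41345 clusters and 4 arrays. Per the labels' protocols, column-purified total RNA was turned into biotin-labelled cRNA from 4 ug and hybridised on Affymetrix arrays. The sources used here do not state the background correction, the summary or the normalization. The platform table gave 1 symbol to 23521 clusters and several to 1814, and did not list 16010. A gene was represented by its brightest single-symbol cluster, and all 47 members matched a RefSeq symbol. Differences were taken between values of log2(intensity + 3.69), and 13258 genes with a mean level above the median of all clusters (intensity 5.81) were kept. No test across genes was run, since each group had 1 array. Every member is accounted for. Values in each array are given for the 3 members farthest from 0 each way in each comparison and for the catalytic, deubiquitinating, receptor, activator, inhibitor and assembly genes. Other pathway genes were named past 1.5-fold or from a fixed list, and Nfe2l2, the forkhead factors, the conjugating enzymes, Sem1, Ecpas, Tap2 and B2m after their values were seen. The members, lists and motifs were chosen with earlier results of these data known. Alternatives were quantile normalization, loess (statsmodels 0.14.6), centring, other offsets, other filters and the mean of all clusters. The counting was checked on simulated data with far less scatter than these arrays, so the check covers the arithmetic only. Python 3.11.15 was used.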

Additional observations from a re-analysis of the deposited data

Results flagged for a closer look

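The STZ differences of WT and KO had opposite signs and lay at least 1.2-fold apart in 13 of 41 members (31.7%), against 27.6% of all genes and 24.1% of genes of like level. Of these, 11 had a difference between the STZ effects below 0 and 2 above 0. Another set, the 13 members with that difference 1.2-fold or more below 0 whatever the signs, fell to 7 under quantile normalization and under loess. It also holds Psma7 (-0.36) and Psmd14 (-0.31), whose signs were alike in WT and KO. The difference between the STZ effects was not tested, because each value rests on 4 single arrays. On the log2 scale, the STZ difference in KO minus that in WT was -0.58 for Psmb10, -0.55 for Psmb2, -0.55 for Psmg1, -0.49 for Psmf1, -0.44 for Psmc4 and -0.43 for Psma1. It was -0.39 for Psmc1, -0.33 for Psmd4, -0.32 for Psmd13, -0.31 for Psmc5 and -0.29 for Psmd8. It was above 0 in Psmb3 (0.36) and Psmg2 (0.33).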

How the results depend on the processing

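KO against WT under STZ turned from -0.17 to 0.020 under quantile normalization and shrank to -0.034 under loess. The difference between STZ effects turned from -0.062 to 0.072 and 0.050. KO against WT under vehicle ranged from -0.054 to 0.0082 and STZ in KO from -0.04 to 0.036, so these also lay on both sides of 0, while STZ in WT ranged from 0.017 to 0.079. The cause was not tested. Counts past 1.2-fold moved by over 1.5 times as follows. Without a level filter, 2 genes in place of 1 were higher in KO vehicle. Under quantile normalization, loess and the mean of all clusters, 1 in place of 3 was lower there. Under STZ, 5 in place of 15 were lower in KO under quantile normalization and loess. There 2 in place of 0 were higher under these and under centring, and 1 when Psmc3ip and Psme3ip1 were counted, an alternative chosen after seeing the data. With STZ in WT, 5 in place of 8 were higher under quantile normalization, loess and centring, and 1 in place of 2 lower with offset 16 or the mean of all clusters. With STZ in KO, offset 16 left 0 higher and 1 lower, and the name-only genes made it 2 higher. For the difference between STZ effects, 7 in place of 13 were below under quantile normalization and loess. There 4 in place of 2 were above under quantile normalization, and 1 with offset 16 or the mean of all clusters. Class medians for KO against WT under STZ turned to 0.014 for base ATPases, 0.073 for other base subunits and 0.079 for activators and inhibitor under quantile normalization, and to 0.056 and 0.046 for the latter classes under loess. The beta ring median turned from -0.023 to 0.15 and 0.13 under these settings. The alpha ring median of the difference between STZ effects was 0.0022 under loess. No paired analysis was possible because each group has 1 array. Having 1 array per group limits the precision of every value.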
